A study of Mus musculus with 8 samples.

Results

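Genomic imprinting leaves 1 parental copy of a gene silent according to the parent it came from. The imprint is DNA methylation placed in the egg or the sperm on an imprinting control region, and 1 such region commonly sets the active allele of several neighbouring genes, so that imprinted genes lie in domains in which some members are read from the paternal and others from the maternal copy. Many act in growth and metabolism and several are highly expressed in the developing brain, where long noncoding RNAs of the same domains are abundant too. Here 36 imprinted mouse genes, chosen by symbol and found in the files by their Ensembl identifiers, were followed among 48709 genes counted in the cortex at postnatal day 3 (P3).

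The study asked what happens in the forebrain when BAF155 and BAF170, scaffold subunits of the BAF (mSWI/SNF) chromatin remodeling complex, are lost. Bulk RNA was sequenced from 4 control and 4 mutant mice, and the files hold the number of reads per gene. The mutants (dcKO_hGFAP-Cre, here dcKO, BAF cKO in the labels) were BAF155 fl/fl; BAF170 fl/fl; hGFAP-Cre pos/+, and the labels call the controls control and, in their titles, WT, with no alleles. The study's methods give the controls of its expression analyses on sections as BAF155 fl/+; BAF170 fl/+; Cre pos/+. Whether the 4 sequenced controls were of that genotype, with Cre and 1 floxed allele of each gene, or wild type is not settled by these sources, so a value of dcKO over control may be relative to either. All mice were kept on a C57BL/6J background. The Cre is driven by the human GFAP promoter, which is active in radial glia of the dorsal telencephalon (dTel) by late neurogenesis and not in every cell of the tissue, and the mutants die soon after birth. The labels name the tissue cortex and the methods name it dTel. Whether same-numbered mice of the groups were related is not given in the sources used here, and the reads of an inbred background summed per gene carry no parental allele: a value below is the sum over both alleles.

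The control libraries summed to between 21126713 and 31805395 reads in genes and the dcKO libraries to between 22002784 and 32110285, and mitochondrial genes took 2.06 to 3.23% and 3.57 to 5.47% of them. Values are given as CPM (a gene's share of the reads of its library, scaled to the usual fixed total) after TMM scaling, for libraries 1 to 4 in order, and a change as the log2 fold change of dcKO over control ± its standard error with the adjusted p of edgeR's quasi-likelihood test over all 16525 genes tested. Smarcc1, which encodes BAF155, fell by 0.97 on the log2 scale and Smarcc2, which encodes BAF170, by 0.77, each with all 4 dcKO libraries below all controls. Libraries stood apart in the markers of tissue next to the cortex. The summed level of 10 choroid plexus markers was 634 and 1204 CPM in dcKO 1 and 2, against 27.0 and 12.6 CPM in dcKO 3 and 4 and 8.75 to 17.2 CPM in control. Most of it was Ttr, at 584 and 1128 CPM in dcKO 1 and 2. Of the 8 tested, 3 were called higher and 0 lower. Among these Otx2 was above all controls in dcKO 3 and 4 as well, at 3.07 and 3.95 CPM against 0.0694 to 0.276 CPM. So was Kcne2, at 0.512 and 0.604 CPM against 0.266 to 0.460 CPM. Other choroid plexus markers went the other way there. Kl was below all controls in dcKO 3 and 4, at 0.716 and 0.513 CPM against 0.782 to 1.92 CPM. Folr1 in dcKO 4 (0.0906 CPM) and Sostdc1 in dcKO 3 (2.46 CPM) were below all controls too. The summed level of 12 markers of meninges and fibroblasts was highest in dcKO 1 (238 CPM) and lowest in dcKO 4 (22.7 CPM). That of 12 striatal markers was 548 CPM in dcKO 2, within the control range of 417 to 556 CPM, and 772 to 1166 CPM in the other 3 mutants. Single striatal markers left the control range both ways in dcKO 2. Ppp1r1b was at 276 CPM there, against 34.2 to 49.1 CPM in control, and Foxp1 at 84.5 CPM, against 185 to 225 CPM. Markers of resident cells differed between the groups as well. Summed markers of cortical excitatory neurons were at 1876 to 2079 CPM in control and 997 to 1176 CPM in dcKO (8 of 10 lower), those of GABAergic interneurons at 684 to 708 and 1052 to 1120 CPM (10 of 12 higher), those of microglia at 130 to 170 and 240 to 293 CPM (8 of 10 higher), and those of the oligodendrocyte lineage at 532 to 570 and 310 to 398 CPM (11 of 12 lower). In bulk tissue, fewer cells of a type and less RNA per cell cannot be told apart, and the part of these shifts in the values below was not tested.

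The starts of 6 of the genes are printed to show what the start of an imprinted gene can look like, with and without a motif of imprinting control regions. Many imprinting control regions are rich in CpG and hold the hexamer TGCCGC, which the zinc finger protein ZFP57 recognises when its CpG is methylated. Each window is RefSeq's, on GRCm38, and runs from 250 bases before a gene's start to 50 after it, 5′ to 3′ on the gene's strand, with TGCCGC and its reverse complement GCGGCA in capitals. Nnat is at chr2:157559828-157560127 (plus strand), Blcap, the gene that holds Nnat in an intron, at chr2:157566312-157566611 (minus), Plagl1 at chr10:13090582-13090881 (plus), Nap1l5 at chr6:58907077-58907376 (minus), Mest at chr6:30737800-30738099 (plus) and Asb4 at chr6:5383136-5383435 (plus). Nnat, Plagl1, Nap1l5 and Mest are paternally expressed genes with the hexamer in the window printed, and Blcap and Asb4 maternally expressed genes without it. The hexamer did not follow the parental allele over the list. Maternally expressed Zim1 and Meg3 held it, paternally expressed Peg3, Ndn and Magel2 did not, and Mest also has a window without it.
Nnat: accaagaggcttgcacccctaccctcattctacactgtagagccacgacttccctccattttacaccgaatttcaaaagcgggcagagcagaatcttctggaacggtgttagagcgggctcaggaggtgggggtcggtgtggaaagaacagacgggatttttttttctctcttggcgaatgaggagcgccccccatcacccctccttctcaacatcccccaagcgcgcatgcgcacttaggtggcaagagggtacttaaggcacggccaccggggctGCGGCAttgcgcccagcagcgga
Blcap: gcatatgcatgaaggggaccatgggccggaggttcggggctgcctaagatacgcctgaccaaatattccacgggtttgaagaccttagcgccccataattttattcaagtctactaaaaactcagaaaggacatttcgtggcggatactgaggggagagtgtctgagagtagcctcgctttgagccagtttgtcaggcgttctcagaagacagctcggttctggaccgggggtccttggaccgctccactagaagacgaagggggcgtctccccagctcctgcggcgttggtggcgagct
Plagl1: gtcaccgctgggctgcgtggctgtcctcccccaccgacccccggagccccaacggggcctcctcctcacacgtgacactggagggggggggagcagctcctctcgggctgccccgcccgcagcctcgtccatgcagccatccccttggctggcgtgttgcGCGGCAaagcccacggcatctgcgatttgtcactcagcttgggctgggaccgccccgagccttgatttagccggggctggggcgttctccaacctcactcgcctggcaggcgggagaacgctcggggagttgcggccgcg
Nap1l5: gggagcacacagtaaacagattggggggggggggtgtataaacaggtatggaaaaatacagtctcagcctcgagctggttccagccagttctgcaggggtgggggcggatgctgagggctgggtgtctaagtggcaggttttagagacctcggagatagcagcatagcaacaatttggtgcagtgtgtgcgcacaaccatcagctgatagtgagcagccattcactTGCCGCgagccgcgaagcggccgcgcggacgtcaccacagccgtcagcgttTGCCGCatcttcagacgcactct
Mest: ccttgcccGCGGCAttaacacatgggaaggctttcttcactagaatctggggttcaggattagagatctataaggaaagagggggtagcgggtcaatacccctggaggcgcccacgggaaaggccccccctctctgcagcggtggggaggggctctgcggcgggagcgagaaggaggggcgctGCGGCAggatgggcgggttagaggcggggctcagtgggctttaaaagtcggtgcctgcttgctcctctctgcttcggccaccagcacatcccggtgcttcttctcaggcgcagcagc
Asb4: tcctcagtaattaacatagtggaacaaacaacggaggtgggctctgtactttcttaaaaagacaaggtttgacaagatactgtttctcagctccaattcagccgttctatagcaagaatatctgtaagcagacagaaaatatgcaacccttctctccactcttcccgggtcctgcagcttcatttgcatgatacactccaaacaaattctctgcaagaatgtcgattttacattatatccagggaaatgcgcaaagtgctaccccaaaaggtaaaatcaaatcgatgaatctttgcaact

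The Plagl1 window held 26 CpG, those of Nnat, Blcap, Nap1l5 and Mest 17 each, and that of Asb4 6. The hexamer was found once in Nnat and in Plagl1 and at 2 positions in Nap1l5 and in Mest. A window was given for 28 of the 36 genes, and 9 of these, or 32.1%, held TGCCGC on either strand in at least 1 window, against 13.1% of the 27025 genes in the table. A gene with several windows has more chances of a match, and by window it was 10 of 42, against 11.6% of all 32851 windows. The median was 13.5 CpG over the 42 windows of the imprinted genes and 7 over all windows. TGCCGC itself holds a CpG, and the part of CpG content in these shares was not tested. By response, the hexamer was in 7 of 17 genes that were higher in dcKO, in 0 of 1 that was lower and in 2 of 9 that passed neither way. A match describes these letters and is no evidence of binding, and the windows are short against a control region.

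Most of the imprinted genes were expressed at P3. Of the 36, 35 passed the filter on low counts. Phlda2, which restrains placental growth, was removed by it, with 0, 0, 0 and 2 reads in control and 2, 2, 1 and 0 in dcKO, at or under the floor of 3 reads in each library. Per kilobase of exon, the highest control levels were those of Nnat (523 CPM per kb), Ndn (158), Snrpn (112), Peg13 (75.3), Meg3 (60.2) and Inpp5f (51.9), and the lowest among tested genes those of Asb4 (0.317), Airn (0.281) and Kcnq1ot1 (0.0579). In dcKO Nnat stood at 1282 CPM per kb and remained the highest, followed by Ndn (187) and Meg3 (131).

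At an adjusted p under 0.05, 19 imprinted genes rose in dcKO, 4 fell and 12 passed neither way. That is 65.7% called, against 37.5% of all genes tested. By direction it is 54.3% higher and 11.4% lower of 35, where 18.6% and 18.9% of all genes were called higher and lower, so the share lower was below the background and the share higher above it. The genes were chosen with earlier results of these data known and many share a domain, so this contrast is a description and no test. The median log2 fold change was 0.55 over the imprinted genes and 0.02 over all genes. All 4 dcKO libraries lay above all 4 controls for 17 genes (48.6%, against 16.7% of all genes) and below them for 4 (11.4%, against 17.7%), where 34.4% of all genes separated either way. For a single gene such a separation gives an exact two-sided permutation p of 0.0286, the smallest that 70 arrangements allow. The change was at least 1 on the log2 scale in 8 of the genes called higher (4.4% of all genes were called at that size) and -1 or less in 1 of those called lower (2.81% of all genes). With dcKO 1 and 2, the libraries highest in summed choroid plexus markers, left out together, 13 were higher and 1 lower. The calls over all genes went from 3074 higher and 3128 lower to 1388 and 1581, with 2 mutants left. The calls lost then, all in the same direction, were those of Peg3 (log2 fold change 0.55), Zim1 (0.73), Meg3 (1.17), Rtl1 (0.90), Mkrn3 (0.25) and Gnas (0.25) among the higher and of Kcnk9 (-0.80), Trappc9 (-0.30) and Peg13 (-0.24) among the lower. Scaling by library totals in place of TMM moved the median of all genes to 0.15 and the calls over all genes to 4584 higher and 2102 lower, and 24 imprinted genes were then higher and 3 lower.

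**Figure D1:**
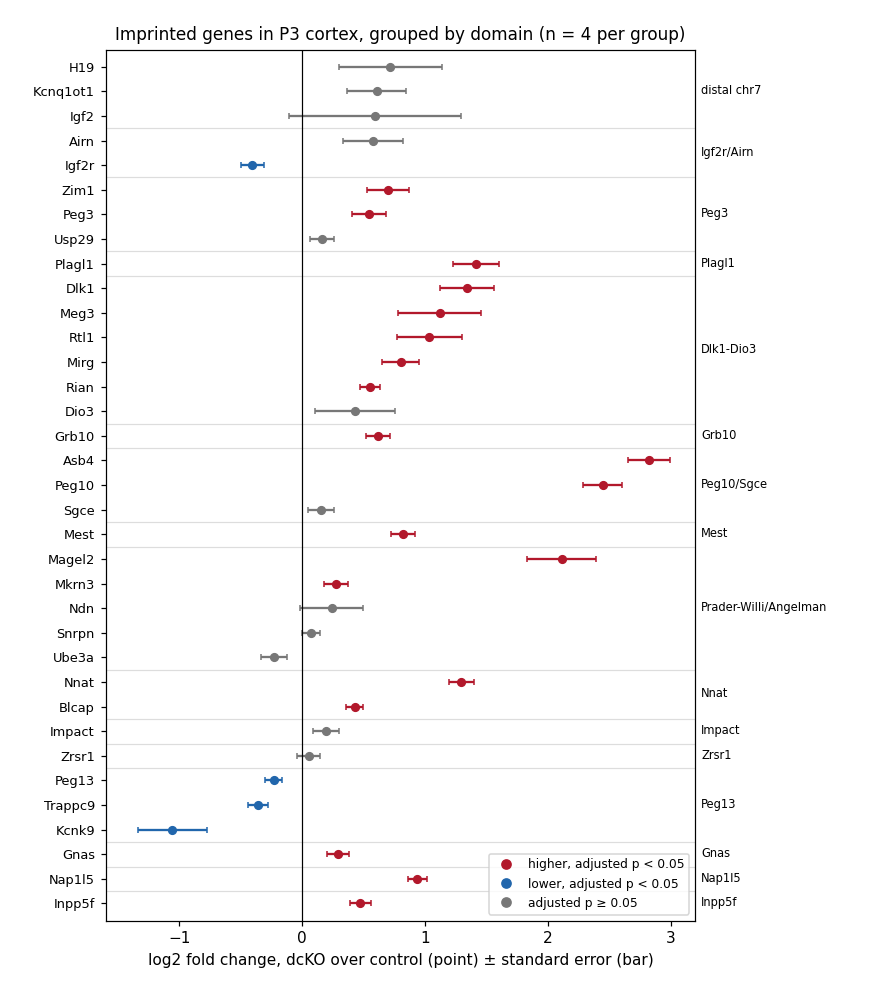
Log2 fold change of dcKO over control (horizontal axis) for the 35 imprinted genes tested, one row a gene, grouped by domain. Points are estimates, bars standard errors, n = 4 per group, and colour marks the call at an adjusted p under 0.05. The 19 genes higher reach 2.82 for Asb4, and the 4 lower are Igf2r and the 3 genes of the Peg13 domain, down to -1.06 for Kcnk9.

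Genes known to be read from either parental allele were among those higher. Of 22 genes known as paternally expressed, 11 were higher, 1 was lower and 10 passed neither way (median 0.56), and of the 11 tested that are known as maternally expressed, 6 were higher and 3 lower (median 0.55). Grb10 and Gnas, whose active allele depends on tissue or transcript, were both higher. The difference between the groups of alleles was not tested. By domain, the genes fall into 16, of which 8 hold 1 gene of the list and 8 hold several. Among the listed genes, a called gene was found in 13 domains, and 0 domains held calls in both directions, which a domain with 1 called gene cannot do. Neighbours outside the list went both ways. Chrac1 was higher where the Peg13 genes were lower, and Cobl was lower beside Grb10, while Pon3 and Calcr were higher like Peg10 and Asb4.

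The Peg10/Sgce domain on chromosome 6 held the largest increases. Peg10, a gag-pol-like gene derived from a retrotransposon and needed for the placenta (chr6:4747306-4760517, plus strand), is read from the paternal copy. It measured 34.2, 37.1, 31.9 and 24.8 CPM in control and 189, 174, 127 and 207 CPM in dcKO. Every mutant was far above every control, a 5.45-fold difference (2.45 ± 0.16, adjusted p = 2.64e-06). Asb4, a maternally expressed gene for a substrate receptor of ubiquitin ligases (chr6:5383386-5433022, plus strand), rose from 1.29, 1.08, 1.33 and 1.28 CPM in control to 9.45, 10.1, 8.87 and 7.12 CPM in dcKO. The groups were again wide apart, and at 7.06-fold this was the largest change among the 35 (2.82 ± 0.17, adjusted p = 6.76e-07).

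Sgce, next to Peg10, passed the test neither way. It encodes epsilon-sarcoglycan, a membrane protein whose loss causes myoclonus-dystonia, is paternally expressed like Peg10, and is read in the opposite direction (chr6:4674350-4747207, minus strand) from a start only 99 bases away. It measured 17.5, 21.7, 21.8 and 21.7 CPM in control and 25.0, 24.5, 21.5 and 21.1 CPM in dcKO, with overlapping groups (0.15 ± 0.11, adjusted p = 0.284). The ratio of Peg10 to Sgce was 1.14 to 1.96 in control and 5.91 to 9.80 in dcKO. Further along the domain Casd1 (0.21 ± 0.09, adjusted p = 0.0714) and Ppp1r9a (0.16 ± 0.09, adjusted p = 0.214) passed neither way. Pon3, a paraoxonase, was higher (0.84 ± 0.29, adjusted p = 0.0350), and Calcr, the calcitonin receptor, had 0.276, 0, 0.133 and 0.0347 CPM in control and 0.684, 1.44, 1.16 and 1.78 CPM in dcKO, with all mutants above all controls at very low levels (3.49 ± 0.55, adjusted p = 4.75e-04).

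**Figure D2:**
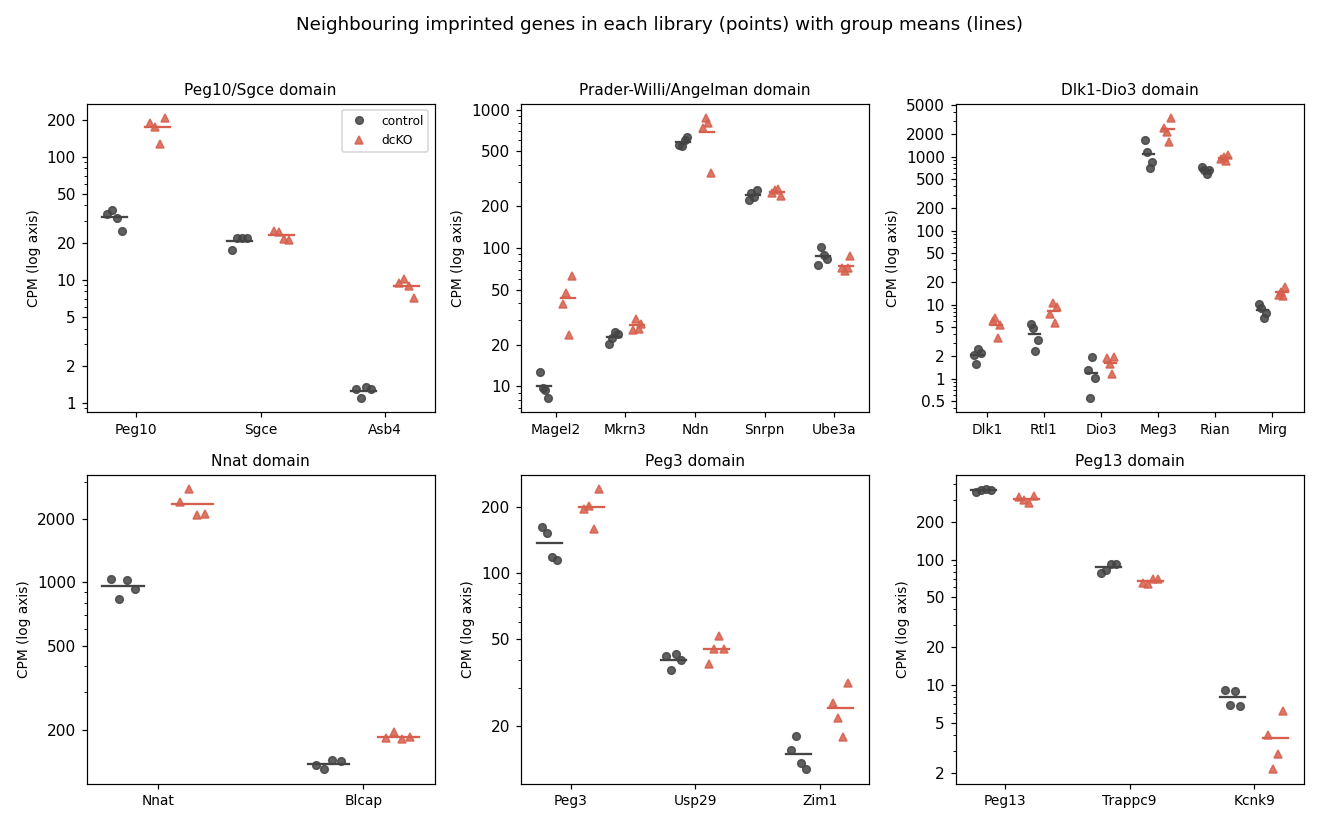
CPM on a log axis for neighbouring imprinted genes in 6 domains, with circles for the 4 control and triangles for the 4 dcKO libraries and a line at each group mean. Peg10 and Asb4 separate widely while Sgce overlaps, Magel2 separates while Ndn and Snrpn overlap, and the 3 genes of the Peg13 domain all lie lower in dcKO.

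Nnat and Blcap share a locus on chromosome 2. Nnat encodes neuronatin, a small membrane proteolipid abundant in developing neurons, and lies (chr2:157560078-157562522, plus strand) inside an intron of Blcap (chr2:157556362-157571274, minus strand), which encodes a small protein also known as a bladder cancer-associated factor. The annotated exons share no bases. Nnat, with 1039, 830.1, 1024 and 931 CPM in control, reached 2412, 2769.8, 2088 and 2111 CPM in dcKO. The lowest mutant was above the highest control by a wide margin, and the fold was 2.45 (1.29 ± 0.10, adjusted p = 3.22e-06). Blcap measured 136, 129, 144 and 142 CPM in control and 183, 194, 179 and 185 CPM in dcKO, without overlap but with a smaller change (0.43 ± 0.07, adjusted p = 5.63e-04). The ratio of Nnat to Blcap was 6.42 to 7.65 in control and 11.4 to 14.2 in dcKO, so that the paternally expressed gene gained more than the maternally expressed one in every mutant.

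In the Prader-Willi/Angelman domain on chromosome 7 the response was split among close neighbours. Magel2 (chr7:62377010-62381640, plus strand) encodes a MAGE protein that acts with ubiquitin ligases in endosomal sorting, and its truncation causes Schaaf-Yang syndrome. Its level was 12.7, 9.81, 9.50 and 8.23 CPM in control and 39.2, 47.6, 23.7 and 62.6 CPM in dcKO. All mutants were above all controls and the fold was 4.32 (2.11 ± 0.28, adjusted p = 5.41e-04), with dcKO 4 the highest. Ndn, the gene of the related protein necdin, starts 30441 bases away (chr7:62346569-62350262, plus strand) and measured 557, 548, 605 and 630.4 CPM in control and 740.1, 874, 805 and 349 CPM in dcKO. Mutants 1 to 3 were above every control and dcKO 4 was below every control (0.24 ± 0.26, adjusted p = 0.495), and without dcKO 4 Ndn was called higher (0.48, adjusted p = 5.03e-04 by edgeR). The ratio of Magel2 to Ndn was 0.0130 to 0.0227 in control and 0.0294 to 0.179 in dcKO.

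Mkrn3, a makorin ring finger gene known for its part in the timing of puberty, had 20.3, 22.4, 24.8 and 23.8 CPM in control and 25.7, 30.5, 26.2 and 28.2 CPM in dcKO. The groups did not overlap, and the change was small (0.27 ± 0.10, adjusted p = 0.0457). Its call was lost under 12 of 17 alternative settings, among them when control 1 (adjusted p = 0.104), control 2 (0.0940), control 3 (0.0564), control 4 (0.0704), dcKO 1 (0.0524), dcKO 2 (0.128) or dcKO 4 (0.0522) was left out, with the replicate number as a block (0.0679) and with the lane as a block (0.0558). Snrpn, which encodes a spliceosomal Sm protein of neurons, measured 223, 250.4, 235 and 261 CPM in control and 248, 263, 268 and 239.6 CPM in dcKO (0.07 ± 0.08, adjusted p = 0.478). Snurf, read from the same transcript, was listed at 0 reads in all 8 libraries, and its 216 exon bases all lie within exons annotated to Snrpn and to another gene model. Ube3a, the ubiquitin ligase gene of Angelman syndrome and the maternally expressed gene of the domain, measured 75.4, 102, 88.7 and 83.7 CPM in control and 72.0, 67.8, 71.8 and 87.2 CPM in dcKO (-0.23 ± 0.11, adjusted p = 0.111). Ube3a was called lower without control 1 (-0.30, adjusted p = 0.0477) and without dcKO 4 (-0.29, adjusted p = 0.0326). Its exons share 1803 bases with Snhg14 on the other strand, which measured 91.5, 78.6, 59.8 and 72.6 CPM in control and 95.9, 78.6, 85.7 and 136 CPM in dcKO (0.39 ± 0.18, adjusted p = 0.110), and counts that do not mark strand cannot tell them apart there.

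In the Dlk1-Dio3 domain on chromosome 12, 5 of 6 genes were higher, from both parental alleles. Among the paternally expressed genes, Dlk1, which encodes a membrane protein related to the Notch ligands (chr12:109452823-109463336, plus strand), measured 2.07, 1.58, 2.52 and 2.22 CPM in control and 6.03, 6.57, 3.55 and 5.34 CPM in dcKO. The mutants were all above the controls at a low level (1.34 ± 0.22, adjusted p = 6.01e-04). Rtl1, a retrotransposon-derived gene needed for placental vessels, measured 5.52, 4.88, 2.36 and 3.37 CPM in control and 7.35, 10.5, 5.59 and 9.30 CPM in dcKO. The groups were separated by a narrow gap, from control 1 to dcKO 3 (1.04 ± 0.27, adjusted p = 0.0103). Rtl1 is crossed on the other strand by microRNA precursors read from the maternal allele, so its counts may hold reads of both. Dio3, the deiodinase that inactivates thyroid hormone, had 1.29, 0.542, 1.96 and 1.01 CPM in control and 1.92, 1.57, 1.16 and 1.93 CPM in dcKO, with overlapping groups (0.43 ± 0.33, adjusted p = 0.320).

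The maternally expressed genes of the domain are noncoding. Meg3 (chr12:109541001-109571726, plus strand), a long nuclear RNA, was at 1680.0, 1139.7, 699.7 and 834 CPM in control and 2398, 2162, 1562 and 3337 CPM in dcKO. Its controls spread widely and control 1 was above dcKO 3 (1.12 ± 0.34, adjusted p = 0.0376). The call was lost without control 2 (adjusted p = 0.0754), control 3 (0.0814), control 4 (0.0958), dcKO 1 (0.0810), dcKO 2 (0.0743) or dcKO 4 (0.0919). Rian, a host of small nucleolar RNAs, rose from 715, 668, 587 and 661 CPM in control to 929.9, 983, 873 and 1062 CPM in dcKO. The mutants were all above the controls with little spread (0.55 ± 0.08, adjusted p = 3.13e-04). Mirg, a host of microRNAs, rose from 10.1, 9.12, 6.67 and 7.74 CPM in control to 13.6, 14.8, 12.96 and 17.1 CPM in dcKO (0.80 ± 0.15, adjusted p = 0.00133), again without overlap. Begain, beyond the Dlk1 end of the domain, passed neither way (-0.08 ± 0.09, adjusted p = 0.529).

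Plagl1, the gene of a zinc finger transcription factor known to arrest the cell cycle, is the only listed gene on chromosome 10 (chr10:13060504-13131694, plus strand). Its level was 40.4, 33.6, 32.9 and 28.5 CPM in control and 91.8, 90.1, 59.4 and 119 CPM in dcKO. The groups were far apart, with dcKO 3 the lowest mutant and dcKO 4 the highest (1.41 ± 0.19, adjusted p = 3.55e-04). In Peg10 and Magel2 too dcKO 3 was the lowest mutant and dcKO 4 the highest. Over the 19 genes called higher, dcKO 3 was the lowest mutant in 15, and dcKO 2 and dcKO 4 were each the highest in 8. In all 19, dcKO 1, 2 and 4 were each above every control, and dcKO 3 was so in 16, the exceptions being Meg3, Peg3 and Zim1. Genes picked as called higher tend to lie above the controls by that choice. The order of the mutants over all genes called higher was not counted, so it marks no trait of imprinted genes.

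**Figure D3:**
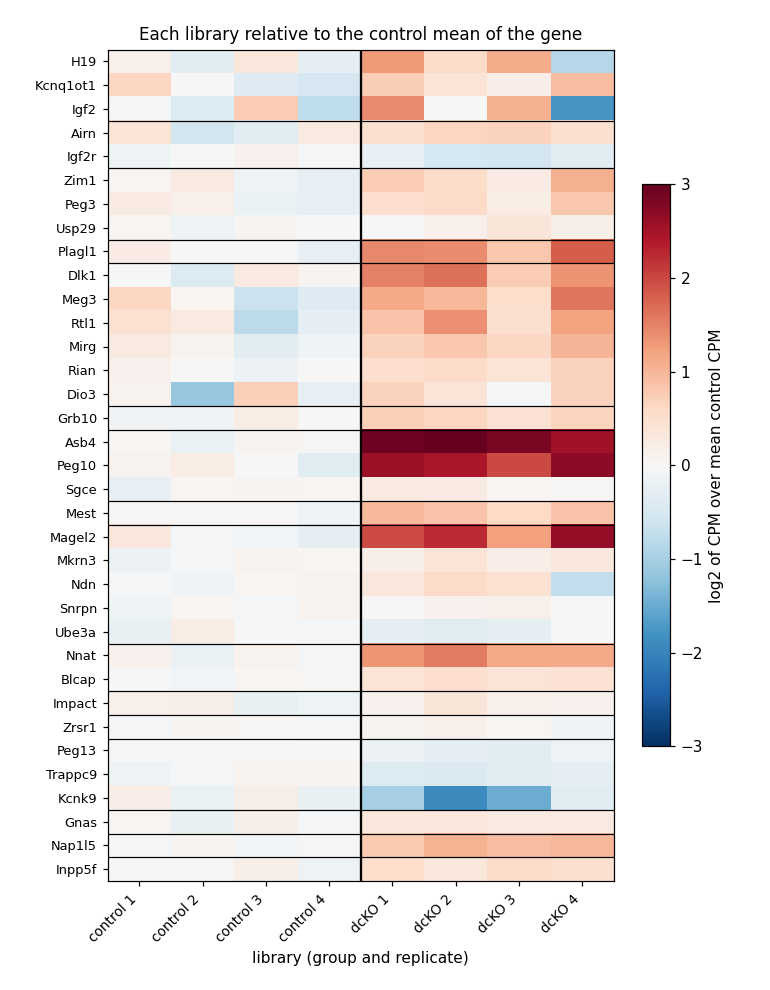
Each of the 35 genes tested (rows, grouped by domain) in each of the 8 libraries (columns), coloured by the log2 of its CPM over the mean CPM of the 4 controls. Asb4, Peg10 and Magel2 are the darkest rows in dcKO, dcKO 3 is the palest mutant in most genes that were higher, and Igf2 and H19 switch from higher in dcKO 1 and 3 to lower in dcKO 4.

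A further 3 genes, each the only listed gene of its domain, rose with little spread between replicates. Nap1l5, a nucleosome assembly protein gene that sits in an intron of Herc3 (chr6:58905233-58907076, minus strand), measured 76.6, 82.6, 74.4 and 80.5 CPM in control and 135, 162, 149 and 156 CPM in dcKO. It was higher in all mutants, at 1.92-fold (0.94 ± 0.08, adjusted p = 5.25e-06), while its host Herc3 passed neither way (-0.10 ± 0.14, adjusted p = 0.609). Mest, which encodes a hydrolase of the endoplasmic reticulum (chr6:30723547-30748465, plus strand), rose from 24.3, 24.6, 24.6 and 22.3 CPM in control to 47.1, 43.2, 36.3 and 43.0 CPM in dcKO (0.82 ± 0.10, adjusted p = 5.62e-05). Its neighbour Copg2, whose exons share 912 bases with Mest, passed neither way (-0.04 ± 0.07, adjusted p = 0.674). Klf14, a Krüppel-like factor gene of the same domain, was higher from 0.184, 0.345, 0.0996 and 0.104 CPM in control to 1.07, 1.53, 1.16 and 1.18 CPM in dcKO, with all mutants above all controls at a very low level (2.81 ± 0.36, adjusted p = 1.16e-04). Grb10, an adaptor that restrains insulin receptor signalling and is known to be read from the paternal copy in neurons and the maternal copy elsewhere, measured 45.7, 45.4, 57.4 and 48.6 CPM in control and 81.4, 76.7, 66.8 and 78.1 CPM in dcKO, without overlap (0.62 ± 0.10, adjusted p = 4.71e-04). Cobl, beside Grb10, was lower (-0.50 ± 0.12, adjusted p = 0.00558).

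Inpp5f and Gnas changed less. Inpp5f encodes a phosphoinositide phosphatase, of which 1 brain transcript is known to be imprinted, and the gene count cannot tell its transcripts apart. It measured 422, 431, 488 and 386 CPM in control and 624, 535, 638 and 601 CPM in dcKO, with no overlap (0.47 ± 0.09, adjusted p = 0.00113). Gnas, the gene of the stimulatory G protein alpha subunit, measured 43.0, 35.4, 46.4 and 40.4 CPM in control and 51.7, 52.5, 48.6 and 49.9 CPM in dcKO. The groups were close but apart (0.29 ± 0.09, adjusted p = 0.0243), and the call was lost without control 2 (adjusted p = 0.0679), control 4 (0.0606), dcKO 1 (0.0652) or dcKO 2 (0.0634). Its exons share 988 bases with Nespas and 1469 with another gene model.

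In the Peg3 domain on chromosome 7 the change was moderate. Peg3 (chr7:6703892-6730431, minus strand), a gene of a large zinc finger protein read from the paternal copy, measured 162, 152, 119 and 115 CPM in control and 195, 203, 159 and 241 CPM in dcKO. Only dcKO 3 was within reach of the controls, just under control 1 (0.54 ± 0.14, adjusted p = 0.0107). Usp29, which encodes a member of the ubiquitin-specific protease family and starts 147 bases from Peg3 on the other strand, measured 41.7, 36.1, 42.9 and 40.2 CPM in control and 38.5, 44.8, 51.5 and 45.1 CPM in dcKO and passed neither way (0.16 ± 0.10, adjusted p = 0.224). Zim1, a maternally expressed zinc finger gene, measured 15.6, 18.1, 13.5 and 12.7 CPM in control and 25.5, 21.9, 17.8 and 31.6 CPM in dcKO. Its groups overlapped by control 2 and dcKO 3 alone (0.70 ± 0.17, adjusted p = 0.00719).

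The 4 genes that fell lie in 2 domains. The Peg13 domain on chromosome 15 was lower in each of its 3 listed genes. Kcnk9, which encodes the potassium channel TASK3 and is maternally expressed in brain (chr15:72501089-72546340, minus strand), measured 9.16, 6.90, 9.03 and 6.84 CPM in control and 4.02, 2.12, 2.83 and 6.25 CPM in dcKO. The mutants were all below the controls but spread widely, with dcKO 4 closest to them (-1.06 ± 0.28, adjusted p = 0.0121). Trappc9, a gene of the TRAPP vesicle-tethering complex, fell from 78.2, 82.5, 93.0 and 92.1 CPM in control to 65.5, 63.7, 69.9 and 70.2 CPM in dcKO (-0.36 ± 0.08, adjusted p = 0.00459). Peg13, a paternally expressed noncoding RNA in an intron of Trappc9, measured 347, 356, 365 and 355 CPM in control and 313, 296, 280.3 and 322 CPM in dcKO (-0.23 ± 0.07, adjusted p = 0.0187). The groups did not overlap in either gene. The call of Peg13 was lost without control 3 (-0.22, adjusted p = 0.0577) and under scaling by library totals (-0.11, adjusted p = 0.200). Of their neighbours, Chrac1 was higher (0.68 ± 0.15, adjusted p = 0.00411) and Ago2 passed neither way (0.05 ± 0.11, adjusted p = 0.741).

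Igf2r and Airn cross on opposite strands of chromosome 17 without shared exon bases. Igf2r (chr17:12682406-12769664, minus strand), the receptor that clears IGF2, is maternally expressed in most tissues, and the noncoding RNA Airn is known to silence the paternal copy outside neurons. Igf2r measured 51.8, 57.4, 62.1 and 55.2 CPM in control and 47.7, 39.1, 38.8 and 45.6 CPM in dcKO. All mutants were below all controls (-0.40 ± 0.10, adjusted p = 0.00575). Airn, near the limit of detection with 14 to 48 reads a library, measured 1.33, 0.690, 0.797 and 1.21 CPM in control and 1.41, 1.57, 1.64 and 1.42 CPM in dcKO. Its mutants were all above the controls by a small gap, and it passed the test neither way (0.58 ± 0.25, adjusted p = 0.0839), although it was called higher without control 1 (0.72, adjusted p = 0.0435). Mas1, a neighbour whose span overlaps that of Airn in part, had the largest fall among the other imprinted genes and neighbours. It measured 2.72, 2.91, 2.56 and 2.43 CPM in control and 0.556, 0.847, 1.09 and 0.966 CPM in dcKO (-1.59 ± 0.23, adjusted p = 2.20e-04).

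Of the listed distal chromosome 7 genes 0 were called by edgeR as described above, with 1, Kcnq1ot1, at an unadjusted p under 0.05, and 0 by DESeq2. By limma-voom Kcnq1ot1 was called higher. Igf2, the paternally expressed growth factor (chr7:142650766-142666816, minus strand), measured 83.3, 63.6, 143 and 49.8 CPM in control and 227, 85.3, 177 and 24.8 CPM in dcKO. Mutants 1 and 3 were above every control and dcKO 4 below every control (0.59 ± 0.70, adjusted p = 0.549). H19, the maternally expressed noncoding RNA of the same control region (chr7:142575529-142578143, minus strand), measured 11.1, 7.99, 12.5 and 8.16 CPM in control and 24.0, 14.8, 21.5 and 5.46 CPM in dcKO. The low library was again dcKO 4 (0.72 ± 0.42, adjusted p = 0.217), and without it H19 was called higher (1.03, adjusted p = 0.00228). Their order over the libraries followed that of 12 meningeal and fibroblast markers, among them the collagens Col1a1, Col1a2 and Col3a1. The marker sum and Igf2 both ran dcKO 1, dcKO 3, control 3, dcKO 2 and control 1 from the top and ended in dcKO 4, and H19 differed by an exchange of dcKO 2 and control 3. Over these 12 markers 0 were called in either direction by edgeR, DESeq2 or limma-voom, and 0 had an unadjusted p under 0.05 in edgeR, and their part in the values of Igf2 and H19 was not tested.

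**Figure D4:**
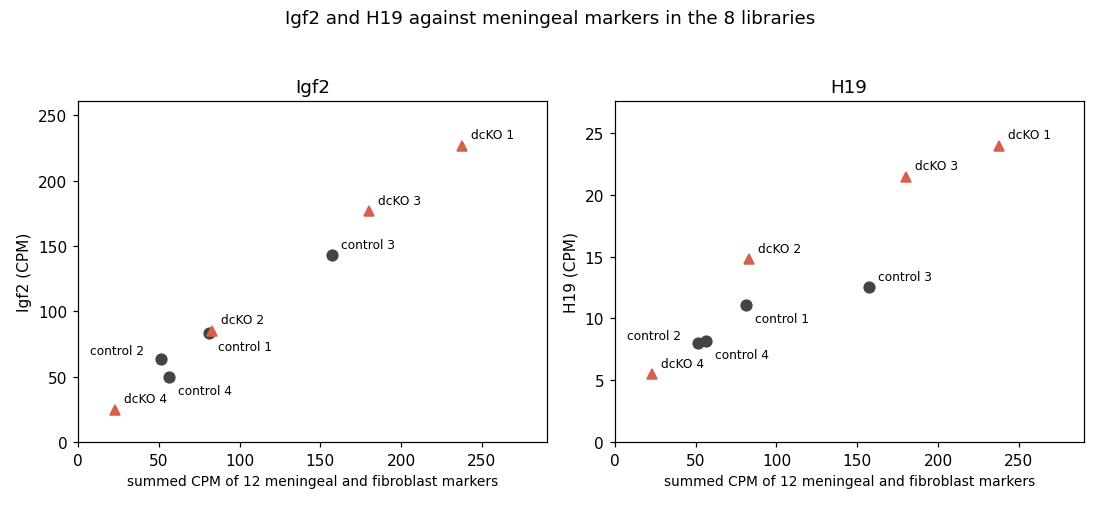
CPM of Igf2 (left) and H19 (right) against the summed CPM of 12 meningeal and fibroblast markers, 1 point a library, circles for control and triangles for dcKO. Both genes are highest in dcKO 1, where the marker sum is 238 CPM, and lowest in dcKO 4, where it is 22.7 CPM.

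Kcnq1ot1, the noncoding RNA of the second control region of distal chromosome 7, measured 8.28, 5.32, 4.12 and 3.82 CPM in control and 8.94, 7.16, 6.21 and 10.2 CPM in dcKO. Control 1 was above all mutants but dcKO 1 and dcKO 4 (0.61 ± 0.24, adjusted p = 0.0690), and the gene was called higher without control 1 (0.88, adjusted p = 0.00692), without dcKO 3 (0.71, adjusted p = 0.0399), by limma-voom (0.67, adjusted p = 0.0400) and in edgeR with library totals (0.72, adjusted p = 0.0408), the replicate number as a block (0.64, adjusted p = 0.0296) or the lane as a block (0.62, adjusted p = 0.0420). Its neighbours Cdkn1c, a maternally expressed inhibitor of cyclin-dependent kinases (-0.23 ± 0.13, adjusted p = 0.188), and Kcnq1 (-0.47 ± 0.28, adjusted p = 0.201) passed neither way, and Osbpl5, a lipid transfer protein gene at the far end of the domain, was lower (-0.37 ± 0.10, adjusted p = 0.0138). The remaining genes that are the only listed ones of their domains showed small differences. Impact, an inhibitor of the kinase GCN2, had a mean of 46.3 ± 6.49 CPM in control and 52.9 ± 4.37 CPM in dcKO (SD, n = 4, 0.20 ± 0.11, adjusted p = 0.167). Zrsr1, which encodes a relative of a splicing factor and lies within Commd1, had means of 23.3 ± 1.08 and 24.2 ± 1.84 CPM (SD, n = 4, 0.05 ± 0.09, adjusted p = 0.677), and its host Commd1 was higher (0.41 ± 0.12, adjusted p = 0.0205).

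Of 45 imprinted genes and domain neighbours outside the 36, 36 were tested, 8 were higher and 7 lower, with a median log2 fold change of 0.06. These shares lie near the 18.6% higher and 18.9% lower of all genes tested, and are no result about these genes. The values reached from -1.59 for Mas1 to 3.49 for Calcr. Dcn, an extracellular matrix gene imprinted in placenta and known in fibroblasts, measured 8.24, 5.18, 16.1 and 5.35 CPM in control and 32.4, 9.32, 28.1 and 3.17 CPM in dcKO, in the same library order as the meningeal markers, and passed neither way (1.05 ± 0.78, adjusted p = 0.333).

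Among the genes that keep imprints 1 call was made. The list has 15 genes of imprint maintenance, which include the DNA methyltransferases and the ZFP57 and TRIM28 proteins that act at methylated control regions. All were tested, and 1 was higher and 0 lower by edgeR, by DESeq2 and by limma-voom (3 and 0 at an unadjusted p under 0.05 in edgeR). Of all genes, 37.5% were called in either direction by edgeR. The 15 lay within a range of -0.20 to 0.45 on the log2 scale. The 1 higher was Ehmt2, a histone H3K9 methyltransferase (363, 313, 329 and 351 CPM in control and 390.4, 407, 353 and 446 CPM in dcKO, 0.24 ± 0.08, adjusted p = 0.0413). Zfp57, which encodes ZFP57, moved most of the 15 but was not called, with overlapping groups. It measured 206, 161, 121 and 134 CPM in control and 223, 216, 153 and 259 CPM in dcKO (0.45 ± 0.19, adjusted p = 0.0889). DNA methylation and allelic expression were not measured in these libraries.

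Several of these genes are also abundant in tissue next to the cortex, so the markers of such tissue are given beside them. Of 14 markers of hypothalamic, midbrain and thalamic neurons, 9 were tested, 4 were higher and 1 was lower, and their sum was 61.5 to 71.6 CPM in control and 68.2 to 99.4 CPM in dcKO, with overlapping groups. That of 12 striatal markers was above all controls in 3 of 4 mutants (7 higher, 0 lower). The sum over 12 endothelial and pericyte markers was 418 to 488 CPM in control and 285 to 448 CPM in dcKO (5 lower), that over 6 red blood cell genes 53.7 to 73.2 and 37.1 to 130 CPM, and that over 12 radial glial and astrocyte markers 2081 to 2221 and 1604 to 3178 CPM. None of the marker lists had a member at 0 in all 8 libraries. The part of any list in the imprinted genes that rose or fell was not tested.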

How the data were processed

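RNA of P3 cortex from 4 control and 4 dcKO mice was analysed. The authors made cDNA libraries with the TruSeq RNA v2 kit, which does not mark strand, aligned reads to mm10 and deposited raw counts per Ensembl gene from featureCounts, with no normalization. The aligner, the annotation, the strand setting and the handling of reads shared by genes are not given in the sources used here. Symbols and coordinates came from GENCODE M21 (GRCm38) and promoter windows from RefSeq on GRCm38.p6.

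Groups came from the labels. The counts were filtered (filterByExpr, minimum count 10), scaled by TMM and tested between groups with the quasi-likelihood F test of edgeR 4.0.16 in R 4.3.3 over 16525 genes, without a replicate block. Benjamini-Hochberg adjustment ran over all of them, with calls at 0.05, and the standard error is the log2 fold change over the square root of F. Single genes also had an exact two-sided permutation test of CPM. On simulated counts of 16338 genes, edgeR recovered 77.5% of 200 genes changed 2-fold, with 8.28% false calls. False calls were 14.6% for edgeR with a replicate block, 18.2% for DESeq2 and 6.55% for voom. Far fewer genes were changed in the simulation than the 37.5% called in the data. DESeq2 1.42.0 and limma 3.58.1 (voom) served as alternatives, with other scalings, filters, thresholds and blocks and with libraries left out. Libraries of a group differed beyond sampling noise, and lane 5 held replicates 1 and 2, lane 6 replicate 3 and lane 7 replicate 4 of both groups. All 23 calls had the same direction within each of the 3 lanes. For the 20 of these whose groups do not overlap it could not be otherwise, so this is no separate check.

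The imprinted genes and all lists were chosen with earlier results of these data known. Genes called, with a mean of at least 1 CPM, were given in every library. Others tested were given by means, or by library beside a called neighbour. A gene of another list was named where it overlaps or neighbours a listed gene or moved most in its list, and Dcn, Igf2, H19 and Kcnq1ot1 were given by library after their values were seen. Single markers of choroid plexus and striatum, and Zfp57, were also named after their values were seen. Separate mice are replicates here as far as the labels say. Counting error sets the precision of low genes, for which 3 reads were 0.0906 to 0.148 CPM.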

Additional observations from a re-analysis of the deposited data

Results flagged for a closer look

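In 4 of 96 groups of 4 libraries examined (each tested imprinted gene, the deleted genes and the marker sums), 1 library stood further from the other 3 than a gap test at the 95% level allows, where chance alone gives about 4.8. In control, Sgce was lowest in control 1 at 17.5 CPM, with the others at 21.7 to 21.8 CPM, and Mest was lowest in control 4 at 22.3 CPM, with the others at 24.3 to 24.6 CPM. In dcKO, Impact was highest in dcKO 2 at 59.4 CPM, with the others at 50.2 to 51.2 CPM. The summed level of the striatal markers was highest in control 2 at 556 CPM, with the others at 417 to 428 CPM.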

How the results depend on the processing

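Of the 23 called imprinted genes, 14 kept their call under each of 17 alternatives and 9 lost it under at least 1, of which 0 turned direction. Of the 12 others, 8 gained a call under at least 1. With dcKO 1 and 2 left out together, 1388 genes were higher and 1581 lower over all genes tested, 13 imprinted genes were higher and 1 lower, and Ndn (-0.025) and Zrsr1 (-0.024) changed sign. At an adjusted p under 0.01, 14 imprinted genes were higher and 2 lower. The share of all genes called at 0.01, and the shares of all calls kept or gained, were not worked out. The counts kept, gained or called at 0.01 therefore do not set imprinted genes apart from other genes. Back at the 0.05 threshold, 8 of the genes called higher and 1 of those called lower had changed by 1 or more on the log2 scale. When 1 library was left out at a time, the imprinted genes called ranged from 16 to 20 higher and from 3 to 5 lower, and all genes called from 2199 to 3308 higher and from 2375 to 3273 lower. Same-numbered libraries deviated together in 2 of 4 pairs (correlations 0.17, -0.07, 0.21 and -0.02), so the numbers were not taken to pair the mice. With the replicate number as a block, 2932 genes were higher and 2982 lower over all genes, and 19 imprinted genes were higher and 4 lower, with Kcnq1ot1 gaining a call and Mkrn3 losing one. With the lane as a block the numbers were 3208 and 3242 over all genes and 19 and 4 among the imprinted genes, with the same exchange. Depth limits the genes of low level, such as Airn and Dio3, and the causes of these changes were not tested.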
